A study of Mus musculus with 8 samples.

Results

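The genes described here carry the signal of leukemia inhibitory factor (LIF), the cytokine that keeps mouse embryonic stem (ES) cells undifferentiated in culture. They are 9 genes of 36163 gene names on the array: the receptor genes Lifr and Il6st, the kinase genes Jak1 and Jak2, the transcription factor gene Stat3, and Socs3, Junb, Pim1 and Pim3, which STAT3 is known to induce. The genes were picked with earlier results of these data known, and their probes were then taken by name from the array's gene annotation. They are represented by 12 of 55681 non-control probes, 7 of the genes by 1 probe each. All 12 probes were well above background on all 8 arrays.

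LIF binds its receptor LIFR, which pairs with gp130 (the product of Il6st). Both receptor chains lack kinase activity of their own and rely on the attached Janus kinases (JAKs), which phosphorylate STAT3. Phosphorylated STAT3 enters the nucleus and induces its targets, among them SOCS3, which binds the receptor complex and shuts the signal off. Mouse ES cells cultured with serum depend on this route to remain pluripotent.

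The cells were E14Tg2A, a mouse ES cell line of strain 129/Ola, and every group came from this 1 line with no introduced allele named in the labels. ES cells (0 days in vitro, DIV) grew in medium with serum and recombinant LIF. Epiblast-like aggregate (ELA) cells were floating aggregates kept for 2 days in a chemically defined minimal medium, NPC cells had then grown attached until 6 DIV, and NPC/Neu cells until 10 DIV in the same medium without its B27 supplement. The recipe of the defined medium lists neither serum nor LIF, so ES differs from the other stages in LIF, serum and medium at once, and from ELA in attachment too, and these cannot be told apart. At each stage total RNA and Ago-RNA, which was immunoprecipitated from cytoplasmic complexes with an antibody to all Argonaute (Ago) proteins, were hybridized to 1 array each. Argonaute proteins hold microRNAs and the mRNAs paired to them.

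Each array carried a pool of RNA from 3 independent experiments, so no group had a replicate array and no test between groups was possible. A value is a log2 normalized intensity, a change is a difference of 2 such values, and Ago enrichment is log2 Ago-RNA minus log2 total RNA at 1 stage. The error given is the spot SD, the SD of a difference over the 10 spots of each of 399 probes printed 10 times. It was 0.24 for the total RNA change from ES to ELA over all these probes, 0.11 over the 209 brighter ones and 0.03 for the Stat3 probe printed 10 times. It covers the array surface only, so that having 1 array per group sets how firmly any value can be read. A member was counted as higher or lower where it differed by 1 log2 unit (2-fold) or more. Fewer cells that hold an mRNA and less of it per cell cannot be told apart in such bulk RNA. From ES to ELA total RNA of 3 of 5 pluripotency markers was lower by 1 or more (Zfp42 by −3.60) and that of 2 of 4 primed epiblast markers higher (Fgf5 by 2.81). Of markers that the ELA label does not call for, 1 of 4 neural progenitor and 1 of 3 detected neuron markers were also higher by 1 or more. So were 2 of 3 detected glia markers and 1 of 2 detected endoderm and mesoderm markers. The 75th percentile of this change over detected gene names was 0.26. The share of gene names higher by 1 or more at this step is not given here, so these marker counts have no background at the same limit. Fabp7, a neural progenitor marker, went from 6.96 at ES to 10.07 at ELA, 15.46 at NPC and 17.38 at NPC/Neu. Tubb3, a neuron marker, went from 12.95 at ES to 17.01 at NPC/Neu. Of 5 endoderm and mesoderm markers, Foxa2 measured 9.55, T 9.73 and Sox17 8.08 at NPC, against 6.76, 7.19 and 6.82 at ES, while Gata6 and Mixl1 were not well above background on any total RNA array. The part of such cells in the values below was not tested.

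From ES to ELA, after LIF and serum had been taken away, total RNA of 7 of the 9 genes was lower and that of the 2 kinase genes was higher. It was lower by 1 or more for 5 genes, Lifr, Stat3, Socs3, Pim1 and Pim3, and higher by 1 or more for none. The same decrease was seen in 3.09% of all gene names and in 4.10% of the 20984 gene names with a probe well above background on both arrays. The median change was −1.10 over the 9 genes and 0.02 over those 20984. All 9 changes exceeded the spot SD.

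**Figure D1:**
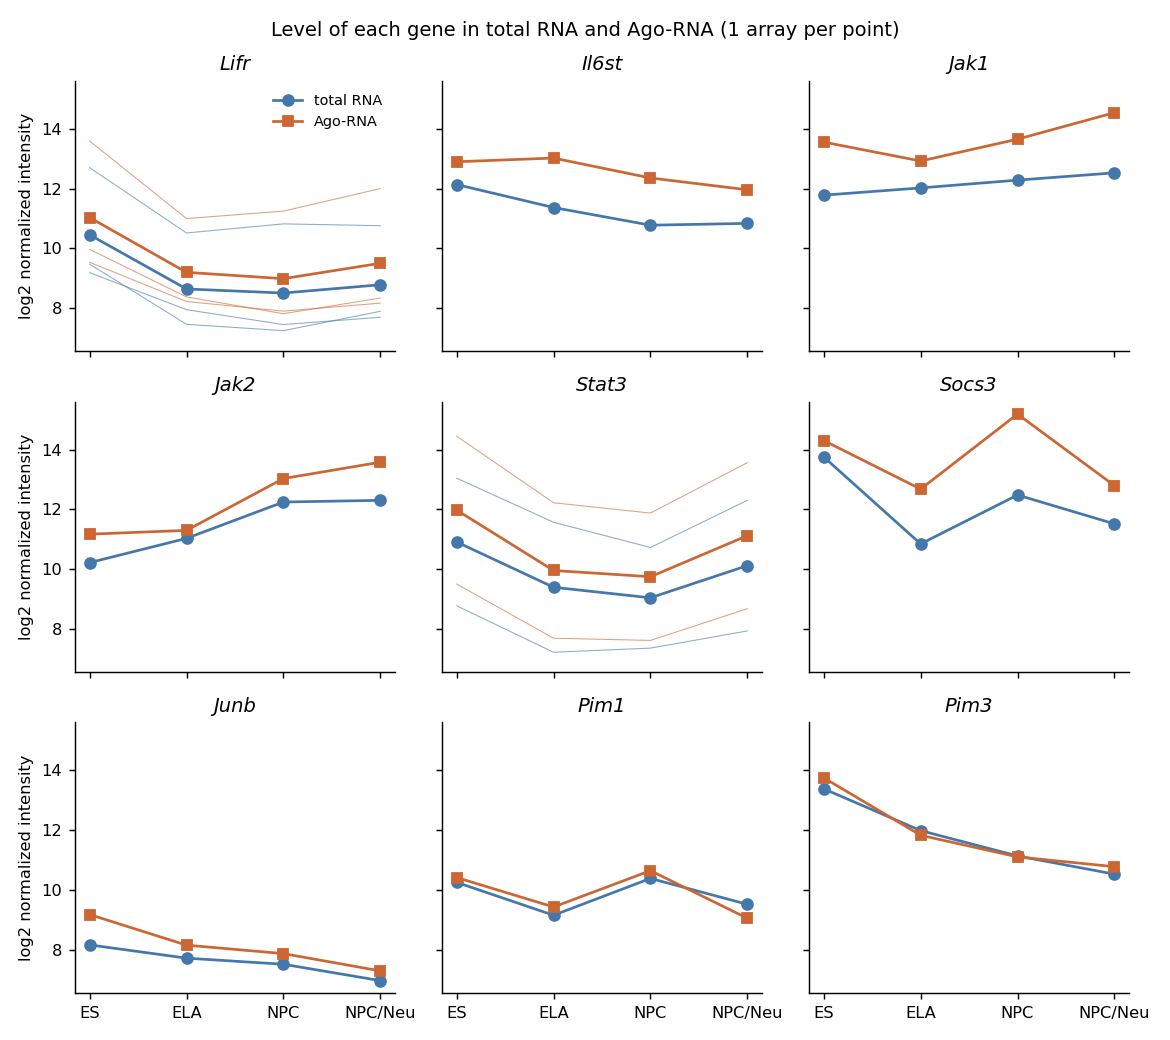
Level of each gene (log2 normalized intensity, vertical axis) at the 4 stages in total RNA (blue circles) and Ago-RNA (orange squares), 1 array per point. Thin lines are the single probes of Lifr and Stat3, whose mean is the thick line. Socs3 total RNA went from 13.76 at ES to 10.84 at ELA, while Jak2 total RNA went from 10.22 at ES to 12.30 at NPC/Neu.

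The first receptor gene, Lifr (mm9 chr15:7079559-7147489, plus strand), encodes the chain that binds LIF. Its mean level in total RNA was 10.46 at ES, 8.64 at ELA, 8.51 at NPC and 8.78 at NPC/Neu. ES was thus the high stage, with the other 3 stages within 0.28 of each other in consecutive steps. The ES to ELA change was −1.81, or 3.52-fold lower, which placed Lifr 241st from the lowest of 20984 detected gene names.

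Lifr is covered by 3 probes, which lie at different ends of its transcripts. Probe A_51_P113182 (chr15:7141150-7141209) spans the end of the coding sequence in 2 of 3 coding transcripts, both with a coding sequence of 3279 bases. Probe A_55_P2159259 (chr15:7147319-7147378) lies far down the 3′ UTR that 1 of these transcripts extends to 6320 bases. Probe A_55_P2159264 (chr15:7135072-7135131) spans the stop codon of a shorter transcript with its own last exon and a coding sequence of 2160 bases. Mouse Lifr is known to give a soluble receptor from a shortened transcript, as well as the membrane receptor.

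All 3 Lifr probes were lower at ELA than at ES in total RNA. The change was −1.24 for the probe at the shared coding end, −2.19 for the probe in the long 3′ UTR and −2.02 for the probe of the short transcript. The probe at the shared coding end differed from each of the others by more than the spot SD, while the other 2 did not differ from each other beyond it. Here and for Stat3 below, the spot SD is that of 1 probe, and that of a difference between 2 probes is larger. For dim repeated probes (mean total RNA below 9) the spot SD of this change was 0.32. In Ago-RNA the 3 Lifr probes changed by −1.32, −2.60 and −1.59. The Ago enrichment of the long 3′ UTR probe was 0.89 at ES, 0.48 at ELA, 0.43 at NPC and 1.24 at NPC/Neu, while that of the probe at the shared coding end lay between 0.27 and 0.47 at all 4 stages. The probe of the short transcript measured 0.49, 0.92, 0.57 and 0.44, so from ES to ELA its enrichment changed by 0.42 while that of the long 3′ UTR probe changed by −0.41.

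Il6st (mm9 chr13:113265216-113297068, plus strand) encodes gp130, the signal-transducing chain shared by the cytokines of the interleukin 6 family. Its total RNA level was 12.14 at ES, 11.37 at ELA, 10.78 at NPC and 10.84 at NPC/Neu. Its Ago-RNA level was 12.90, 13.03, 12.36 and 11.96 at the same stages. Total RNA was thus highest at ES and changed by −0.77 to ELA, whereas Ago-RNA changed by 0.12, within its spot SD of 0.18. Ago enrichment of Il6st was 0.76 at ES and 1.66 at ELA, a variation of 0.89 (spot SD 0.27). At ELA this enrichment was the 135th highest of 20394 detected gene names.

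The kinase genes went the other way from the receptor genes. Jak1 (mm9 chr4:100824972-100937887, minus strand), the Janus kinase that gp130 signaling depends on, had total RNA levels of 11.78, 12.03, 12.29 and 12.53 from ES to NPC/Neu. Each step was between 0.24 and 0.26, and from ES to NPC/Neu the change was 0.75 (spot SD 0.20). Jak2 (mm9 chr19:29326318-29387570, plus strand), which also serves growth hormone and erythropoietin receptors, had levels of 10.22, 11.03, 12.25 and 12.30. Its change was 0.81 from ES to ELA and 1.22 from ELA to NPC, and it ended 4.25-fold higher at NPC/Neu than at ES. Jak2 was the only member higher by 1 or more over the whole course, as 11.3% of all gene names and 15.4% of detected ones were.

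In Ago-RNA the kinase genes had their low point at ELA or at ES. Jak1 measured 13.56 at ES, 12.93 at ELA, 13.66 at NPC and 14.55 at NPC/Neu in Ago-RNA. From ES to ELA its Ago-RNA changed by −0.63 (spot SD 0.18) while its total RNA changed by 0.24, equal to the spot SD at 2 decimals. For Jak2, Ago-RNA measured 11.17, 11.30, 13.03 and 13.58. Ago enrichment of both was lowest at ELA, at 0.90 for Jak1 and 0.27 for Jak2, and highest at NPC/Neu, at 2.02 and 1.28.

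Stat3 (mm9 chr11:100746412-100800854, minus strand) encodes the transcription factor that the kinases phosphorylate. Its mean total RNA level was 10.91 at ES, 9.39 at ELA, 9.04 at NPC and 10.12 at NPC/Neu. ELA and NPC were the low stages, and the mean at NPC/Neu was 2.11-fold above that at NPC. This change of 1.08 (spot SD 0.15) was the only increase of 1 or more among the 9 genes at that step, as was seen in 3.65% of all gene names and 5.32% of detected ones, but 1 of the 2 probes passed it (1.58) and the other did not (0.58). Of 5 pluripotency markers 2 were also higher by 1 or more from NPC to NPC/Neu, Esrrb by 1.96 and Zfp42 by 1.06. So were all 4 neuron markers, by 1.88 to 3.11, and 1 of 4 each of the neural progenitor, glia and primed epiblast markers. The part of any such cells in the Stat3 value was not tested.

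Both Stat3 probes were lower at ELA than at ES and still so at NPC/Neu (changes from ES of −0.74 and −0.84), but they differed at the steps between. The probe in the 3′ UTR, printed 10 times, measured 13.05, 11.57, 10.73 and 12.30 in total RNA, and the probe in the coding sequence of all 4 coding transcripts measured 8.77, 7.22, 7.35 and 7.93. The ES to ELA changes were −1.48 and −1.56, a difference within the spot SD of 0.24. From ELA to NPC they were −0.84 and 0.14, and from NPC to NPC/Neu 1.58 and 0.58, differences beyond the spot SD, so that NPC was the lowest stage for the 3′ UTR probe and ELA for the coding probe. Ago enrichment was 1.41, 0.65, 1.15 and 1.26 for the 3′ UTR probe against 0.73, 0.47, 0.26 and 0.75 for the coding probe, beyond the spot SD at ES, NPC and NPC/Neu. The coding probe was dim: its Ago-RNA was 7.69 at ELA and 7.61 at NPC, below the Ago binding threshold of 7.80. The cause of the difference between probes was not tested.

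**Figure D2:**
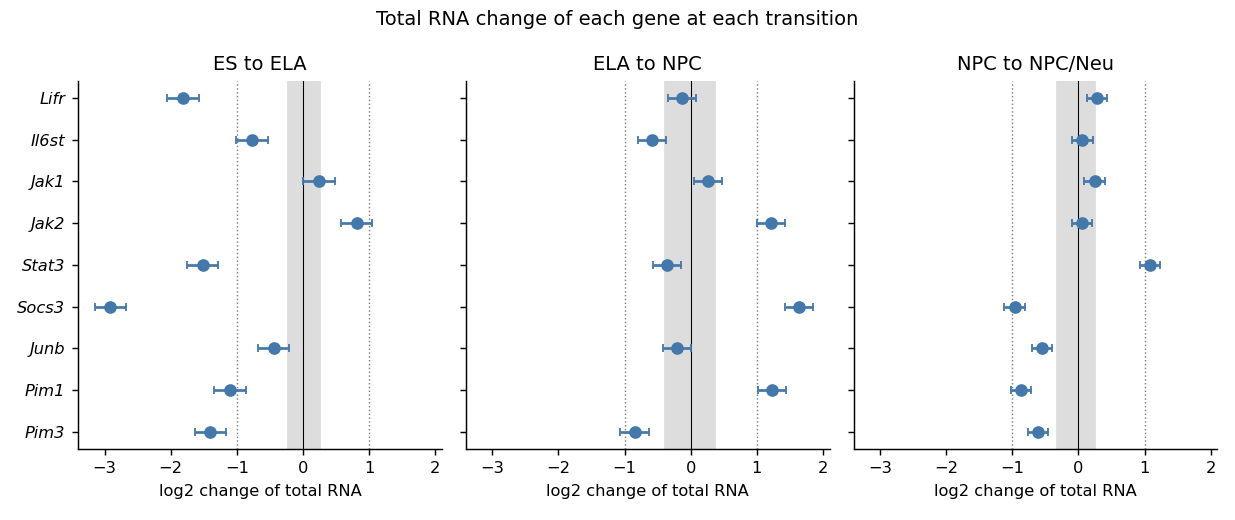
Total RNA change of each gene (log2, horizontal axis) at each of the 3 transitions, with the spot SD as error bar, 1 array per stage. The gray band runs from the 25th to the 75th percentile of detected gene names and dotted lines mark changes of 1. From ES to ELA 5 genes lie below −1 with Socs3 at −2.91, and from ELA to NPC Socs3, Jak2 and Pim1 lie above 1.

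Socs3 (mm9 chr11:117827393-117831361, minus strand), the feedback inhibitor, had the largest change of the 9 genes in total RNA. It measured 13.76 at ES, 10.84 at ELA, 12.48 at NPC and 11.52 at NPC/Neu. ES was the highest stage and ELA the lowest, 7.53-fold below ES, and NPC lay between the other stages. The ES to ELA change of −2.91 was the 52nd lowest of 20984 detected gene names. From ELA to NPC Socs3 was higher again by 1.64, together with Jak2 (1.22) and Pim1 (1.23). An increase of 1 or more at that step was found for these 3 of 9 genes, in 7.13% of all gene names and in 9.48% of detected ones.

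Ago-RNA of Socs3 followed another course than its total RNA. It measured 14.31 at ES, 12.68 at ELA, 15.20 at NPC and 12.80 at NPC/Neu, so NPC was the highest stage and the NPC level exceeded that at ES, which total RNA did not. Ago enrichment of Socs3 was 0.55 at ES, 1.84 at ELA, 2.71 at NPC and 1.28 at NPC/Neu. The value at NPC was the 18th highest of 21251 detected gene names. The variation was 1.29 from ES to ELA and −1.43 from NPC to NPC/Neu, and Socs3 was the only member past 1 at either step. An increase of 1 or more from ES to ELA was found in 5.14% of all gene names and 8.06% of detected ones, and a decrease of 1 or more from NPC to NPC/Neu in 3.00% and 3.90%.

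The promoter of Socs3 was the only one among those of the 9 genes that held the motif TTCNNNGAA, the palindromic core of STAT binding sites, in which N stands for any base. It is printed here because STAT factors are known to act on Socs3 through such sites. The stretch below comes from the RefSeq promoter table of build GRCm38.p6, chr11:117969452-117969580, minus strand, and ends before the transcription start of that table. The match in capitals lies 154 to 146 bases before this RefSeq start site. Start sites in other annotations, such as GENCODE, were not compared.
Socs3 promoter: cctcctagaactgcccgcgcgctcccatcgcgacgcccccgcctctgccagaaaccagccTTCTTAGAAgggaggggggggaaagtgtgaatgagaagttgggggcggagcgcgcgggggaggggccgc
Of 32851 promoter windows of 300 bases in that table, 8.30% held the motif, and of 11 windows of the 9 genes, 1 did (Lifr and Pim1 have 2 windows each). The search covered both strands, since the motif reads the same on each, and a match is a description of letters, not of binding.

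Among the other STAT3-induced genes, Pim1 and Pim3 encode serine/threonine kinases that favor cell survival and growth. Pim1 (mm9 chr17:29627757-29632390, plus strand) measured 10.25 at ES, 9.15 at ELA, 10.38 at NPC and 9.52 at NPC/Neu in total RNA. ES and NPC were its high stages, and the ES to ELA change was −1.10, or 2.15-fold lower, a call that was lost (−0.9994) with the 2 RNA fractions quantile normalized separately. Pim3 (mm9 chr15:88692616-88696150, plus strand) measured 13.38, 11.99, 11.14 and 10.53. It was lower at every step and ended 7.24-fold below ES, the largest change of the 9 genes over the whole course. Ago-RNA of Pim3 stayed near its total RNA, with an enrichment between −0.16 and 0.37 over the 4 stages, and that of Pim1 was between −0.47 and 0.28.

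Junb (mm9 chr8:87500811-87502617, minus strand) encodes a subunit of the AP-1 transcription factor. Its total RNA level was 8.16 at ES, 7.71 at ELA, 7.51 at NPC and 6.96 at NPC/Neu. The first step (−0.44) exceeded the spot SD of 0.24 and of dim probes (0.32), and the change over the whole course was −1.20. Its Ago-RNA measured 9.17, 8.15, 7.87 and 7.29, and its Ago enrichment was 1.02 at ES and between 0.33 and 0.44 later. The Ago-RNA level at NPC/Neu lay below the Ago binding threshold of 7.80. From ES to NPC/Neu, total RNA of Lifr, Il6st, Socs3, Junb and Pim3 was lower by 1 or more, as 11.3% of all gene names and 15.3% of detected ones were.

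**Figure D3:**
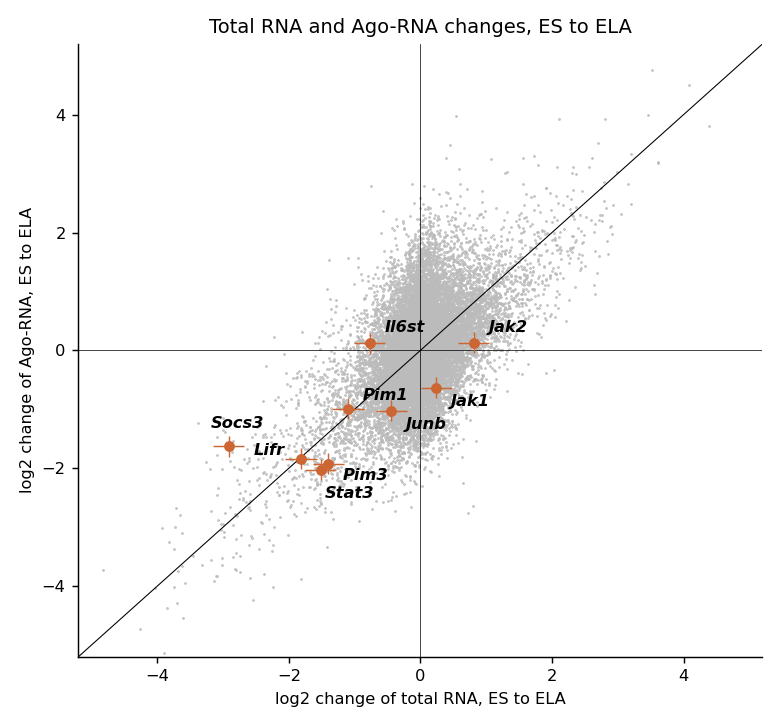
Change of Ago-RNA (vertical axis) against change of total RNA (horizontal axis), both log2, from ES to ELA. Gray points are detected gene names, orange points the 9 genes with the spot SD of each change as bars, and the diagonal marks equal changes. Socs3 and Il6st lie above the diagonal by 1.29 and 0.89, and Jak1 below it by 0.88.

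The median Ago enrichment of the 9 genes was above that of detected gene names at every stage. It was 0.76 at ES, 0.56 at ELA, 0.71 at NPC and 1.00 at NPC/Neu, against medians between −0.02 and 0.07 over detected gene names. An enrichment of 1 or more was found for Stat3, Junb and Jak1 at ES (6.56% of all gene names and 10.3% of detected ones), for Il6st and Socs3 at ELA (2.43% and 3.63%), for Il6st, Socs3 and Jak1 at NPC (3.59% and 5.55%), and for Il6st, Stat3, Socs3, Jak1 and Jak2 at NPC/Neu (7.34% and 11.8%). The calls of Junb at ES (1.02) and Stat3 at NPC/Neu (1.00) lay at the limit, and were lost with scaling of the processed intensity to the 75th percentile (0.90 and 0.96), that of Stat3 also with irregular spots kept (0.99). Among gene names with a total RNA level of 10 or more the median enrichment was between −0.10 and −0.07 over the 4 stages, while 13.3% of them had 1 or more at ES, 3.50% at ELA, 6.94% at NPC and 13.0% at NPC/Neu. Above that level, 2 of 8 members had 1 or more at ES, 2 of 5 at ELA, 3 of 6 at NPC and 5 of 6 at NPC/Neu. The median over these members was between 0.67 and 1.20.

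The members did not share a course of Ago enrichment. From ES to ELA it was lower beyond the spot SD for Stat3 (−0.51), Junb (−0.58), Jak1 (−0.88), Jak2 (−0.68) and Pim3 (−0.52), and higher for Il6st (0.89) and Socs3 (1.29). The median variation was −0.51, against −0.01 over 19956 detected gene names. None of the 12 probes met the release rule of the study's methods (an enrichment of 2 or more that becomes 0.5 or less, with a variation of at least 1.5 and an Ago-RNA level above 7.80) at any of the 3 transitions, and none met the reverse rule for loading. Over all 55681 probes, 106 met the release rule and 74 the loading rule from ES to ELA. The counts were 48 and 16 from ELA to NPC, and 16 and 20 from NPC to NPC/Neu. With rules met this rarely, finding none among 12 probes says little about the members.

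**Figure D4:**
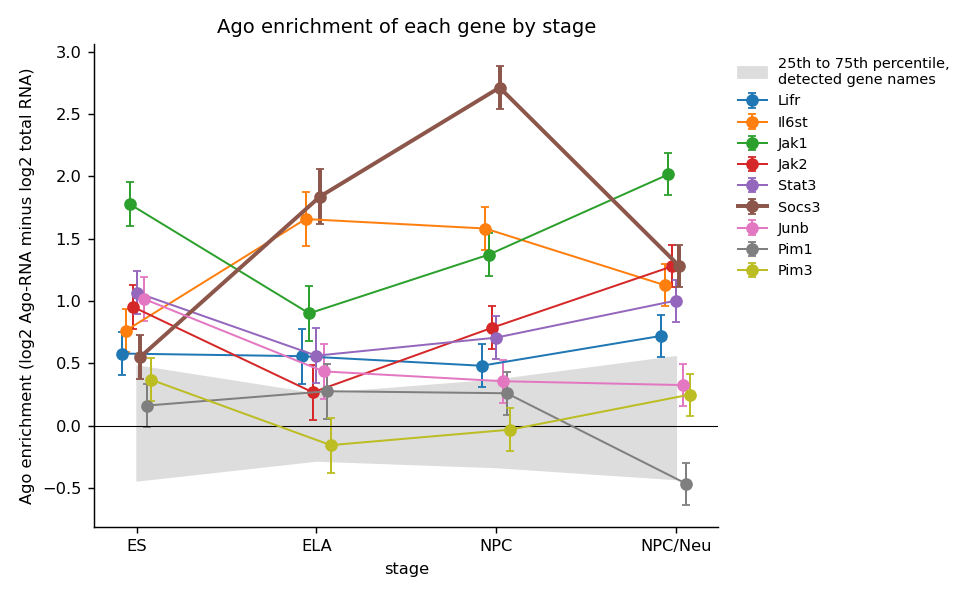
Ago enrichment (log2 Ago-RNA minus log2 total RNA, vertical axis) of each gene at the 4 stages, with the spot SD as error bar. The gray band runs from the 25th to the 75th percentile of detected gene names. Socs3 peaks at 2.71 at NPC, Jak1 is lowest at ELA with 0.90, and Pim1 is the lowest of the 9 genes at NPC/Neu with −0.47.

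MicroRNAs that pair with a 3′ UTR through their seed (bases 2 to 8) recruit Ago to an mRNA. Mature sequences from the RefSeq table (GRCm38.p6) of microRNAs known from ES cells and from neural differentiation are given with the seed in capitals, because these are the sequences that the 3′ UTRs were searched with.
mmu-miR-294-3p: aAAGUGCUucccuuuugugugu
mmu-let-7a-5p: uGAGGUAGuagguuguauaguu
mmu-miR-9-5p: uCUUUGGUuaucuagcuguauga
The seed of miR-294-3p is shared with miR-291a-3p, miR-295-3p, miR-302b-3p and miR-302d-3p, which belong to the clusters that are abundant in ES and epiblast cells.

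In the longest annotated 3′ UTR of each gene (GENCODE vM1), a match to the 7 bases complementary to a seed was found once for each microRNA, in a different gene each time. The matches are printed with the paired bases in capitals.
Il6st, miR-294-3p, bases 845 to 851 of 2415: ctggttgaggaAGCACTTtatccaga
Stat3, let-7a-5p, bases 78 to 84 of 3701: ctcggagtgtgCTACCTCccccatgt
Lifr, miR-9-5p, bases 1847 to 1853 of 6320: ccagagccaacACCAAAGagtttctg
Of 19915 genes with a 3′ UTR, whose median length was 893 bases, 13.4% held a match to miR-294-3p, 8.81% to let-7a-5p and 11.4% to miR-9-5p. The 3′ UTRs of Socs3 (1474 bases), Jak1 (1128), Jak2 (1232), Junb (483), Pim1 (698) and Pim3 (958) held none of the 3, which says only that these letters are not there. miR-302a-3p and miR-124-3p were not searched. Il6st, which holds the miR-294-3p match, had Ago enrichment of 0.76 at ES and 1.66 at ELA, as given above. The means of Stat3 and Lifr, which hold the other matches, were 1.07 and 0.58 at ES and both 0.56 at ELA. Without a match to these seeds, Socs3 had the highest enrichment of the 9 genes (2.71 at NPC) and Pim1 the lowest (−0.47 at NPC/Neu). Whether matches and enrichment are related was not tested.

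Other genes of the pathway were read from lists of known members. Counts are of genes detected on both arrays and lower or higher by 1 or more in total RNA from ES to ELA. Of the 5 detected cytokines of the gp130 family that are reported here none was lower or higher by 1 or more, with changes between −0.73 and 0.98. Lif itself measured 7.08 at ES and 8.06 at ELA and was well above background on 3 of 4 total RNA arrays. Of 3 other receptors of the family 1 was lower, Il6ra, the interleukin 6 receptor, at 8.68 and 7.36. Among 7 other JAK and STAT genes 3 were lower, namely Stat4 (−1.30), Jak3 (−1.27) and Tyk2 (−1.07). The kinase genes thus differed in direction at this step, with Tyk2 and Jak3 lower and Jak1 and Jak2 higher.

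Of 14 other feedback inhibitors none was lower or higher by 1 or more in total RNA, with changes between −0.54 and 0.49. Socs1, a relative of Socs3, measured 10.24 at ES, 9.75 at ELA, 8.87 at NPC and 8.81 at NPC/Neu in total RNA. In Ago-RNA it measured 10.56, 11.82, 11.78 and 10.72, which gave an Ago enrichment of 0.32, 2.07, 2.92 and 1.91. Socs1 and Socs3 had their highest enrichment at NPC and their lowest at ES, with total RNA changes of −0.49 and −2.91 from ES to ELA. Cish, on the same list, shared this order at lower values, with −0.23, −0.13, 0.29 and 0.11 from ES to NPC/Neu. The other genes named Socs on the list did not. Their enrichment was highest at ES for Socs2 (0.49), at ELA for Socs4 (1.03) and Socs6, and at NPC/Neu for Socs5 (1.21) and Socs7 (2.33). None of the 6 adaptors that link gp130 to the ERK and PI3K routes passed 1 in total RNA, and their median change was 0.17.

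The other STAT3 target genes moved in both directions. Of 11 detected ones 5 were lower, with Bcl3 (14.05 at ES and 10.42 at ELA), Klf4 (12.86 and 9.85) and Klf5 (13.75 and 11.37) changing most, all of them regulators of transcription that ES cells express. One was higher, Pim2, the third Pim kinase gene, which measured 13.24 at ES and 14.90 at ELA and then 9.02 at NPC. The Pim genes thus differed in direction at the ES to ELA step, with −1.10 for Pim1, −1.40 for Pim3 and 1.66 for Pim2. Of 9 AP-1 and immediate early genes other than Junb 4 were higher by 1 or more, Fosb by 2.66, Fos by 2.28, Jun by 1.65 and Egr1 by 1.49, and none was lower by 1 or more. Over detected gene names the 75th percentile of the change at this step was 0.26. The share of them higher by 1 or more is not given here, so this count has no background at the same limit. Junb, at −0.44, was on the lower side, as were Fosl1 at −0.71 and Ier2 at −0.11.

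**Figure D5:**
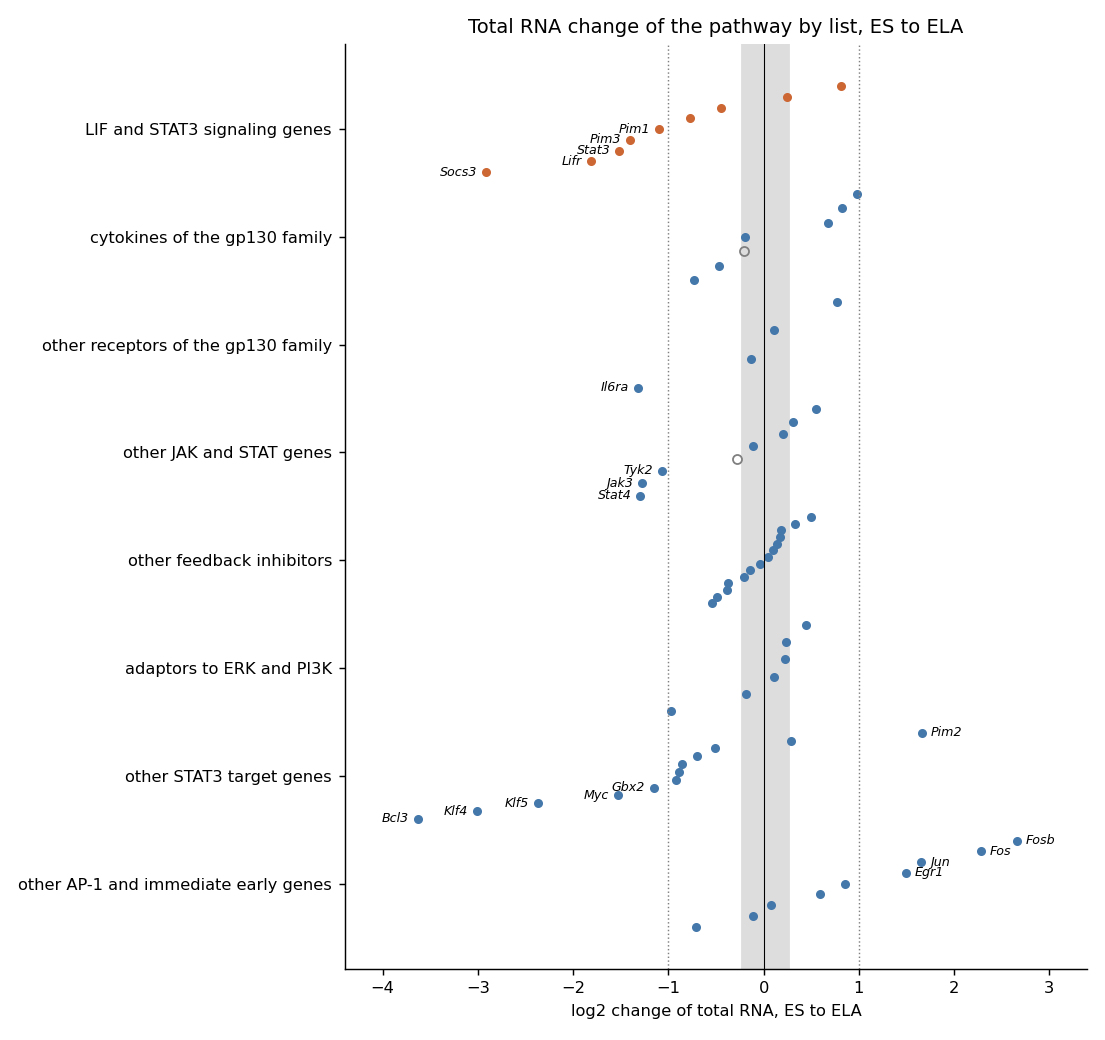
Total RNA change from ES to ELA (log2, horizontal axis) of each gene in the lists of the pathway, with the 9 genes in orange and each gene past 1 in size named. Open circles are genes not well above background on any total RNA array, and the gray band runs from the 25th to the 75th percentile of detected gene names. Bcl3 lies lowest at −3.63 and Fosb highest at 2.66.

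Gene names whose total RNA went most like that of Socs3 were sought by the distance over its 3 changes from ES (−2.91 at ELA, −1.27 at NPC and −2.24 at NPC/Neu), among 19843 gene names detected on all 4 total RNA arrays. The nearest was Smad7 at a distance of 0.19 (log2), the inhibitory Smad of the TGF-β and BMP pathways, with changes of −2.85, −1.43 and −2.18. It was followed by Nkx2-9, a homeobox gene, at 0.49, and by Cct6b, Pcsk6 and Stard8 at 0.53 to 0.85. This likeness rests on 4 arrays and describes the level only.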

How the data were processed

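Arrays were Agilent one-color SurePrint G3 Mouse (mm9), 8 samples of 4 stages, 1 array each, on 1 slide scanned at 1 time. The authors deposited spot intensity as Feature Extraction wrote it (version 10.7.3.1 per the file headers), not normalized between arrays. The 75th percentile of signal was 1060 to 3039 per array, 53.4 to 61.2% of spots were well above background and none was saturated.

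The study's methods name background correction and quantile normalization across arrays with limma, without the kind of correction or an offset. Here background was corrected by normexp with an offset of 50 (limma 3.58.1, R 4.3.3). Quantile normalization of log2 values was then run over all 8 arrays. Control spots and irregular spots (125 to 523 per array) were dropped. Repeated probes were averaged, then the probes of a gene. A gene is called detected where 1 of its probes was well above background on every array compared. The threshold for Ago binding (7.80) was fitted with mclust 6.1.1. Python 3.11.15, numpy 2.4.6 and pandas 2.3.3 served for the rest. The normalization was also run on simulated arrays, with known changes planted in brighter probes and with spot noise only. That run did not cover changes of dim probes, variation between experiments or a difference in distribution between Ago-RNA and total RNA. Probes were placed in GENCODE vM1 transcripts (mm9) by their sequence.

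The members and the other lists were chosen with earlier results of these data known. Named are the members, stage markers, up to 4 genes of each list that moved by 1 or more from ES to ELA, and the 5 gene names most like Socs3. A gene of the cytokine list is not reported here. Lif, Fosl1, Ier2, Cish and the Socs genes other than Socs1 and Socs3 were named after their values were seen. From ES to ELA total RNA was higher by 1 or more for 2 of 3 detected glia markers, 1 of 3 neuron markers, 1 of 4 neural progenitor markers and 1 of 2 endoderm and mesoderm markers. No group has a replicate, so no p-value is given.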

Additional observations from a re-analysis of the deposited data

Results flagged for a closer look

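Jak1 was singled out because its RNA fractions changed in opposite directions, each by more than its spot SD, from ES to ELA. Its Ago-RNA changed by −0.63 and its total RNA by 0.24. With 1 array per condition the difference was not tested. The total RNA change was barely larger than the spot SD over all repeated probes (0.24), which was 0.11 over the brighter ones.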

How the results depend on the processing

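The alternatives were an offset of 16 or of 0, the scanner's processed intensity (quantile normalized, or scaled to the 75th percentile), quantile normalization kept apart for Ago-RNA and total RNA, only probes well above background, the brightest probe of each gene, and irregular spots kept. With Ago-RNA and total RNA normalized apart, 5 members had an Ago enrichment of 1 or more at ES, and the median enrichment of the members was 1.08 at ES, 0.89 at NPC and 1.25 at NPC/Neu. With the brightest probe of each gene, the median enrichment at NPC/Neu was 1.24 and the median total RNA change from ELA to NPC was 0.26, against −0.14 as reported. With the processed intensity and quantile normalization, 1 member was lower by 1 or more in total RNA from NPC to NPC/Neu, and the median total RNA change from ES to NPC/Neu was −1.40. With scaling to the 75th percentile that median was −1.48, and 2 members had a decrease of Ago enrichment of 1 or more from NPC to NPC/Neu. The cause of these shifts was not tested. Medians over detected gene names shifted too: scaling to the 75th percentile put their Ago enrichment between −0.33 (ES) and −0.12 (NPC) and their total RNA change from ELA to NPC at −0.21, and normalizing apart put their Ago enrichment between 0.14 (ES) and 0.21 (NPC/Neu). Other counts of members stayed within 1.5 times and other medians within the spot SD, and no value of 1 or more in size changed sign for any member. Values under 0.5 in size could change sign, such as the Lifr variation of Ago enrichment from ES to ELA, between −0.41 and 0.22 over the alternatives. No paired analysis was possible because each group has 1 array. The number of arrays limits what the values can show. So does the low signal over background of Junb and of the Stat3 coding probe. The same holds for the Lifr probes at the shared coding end and of the short transcript, between 7.25 and 7.95 in total RNA after ES.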
